A study of Mus musculus with 8 samples.

Results

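The 10 imprinted genes described here have roles in growth control and were measured on all 8 arrays of a mouse bone marrow study: Dlk1, Plagl1, Peg10, Igf2, Ndn and Peg3, which are mainly expressed from the paternal copy, and H19, Cdkn1c, Grb10 and Igf2r, which are mainly expressed from the maternal copy. They were chosen by gene symbol, and all 10 had a probe among the 20892 genes that could be named on the array, 20 probes in all. Marrow came from C57BL/6 mice of 4 genotypes, and all 4 carried Cre-ERT2, a ligand-dependent recombinase. JAK2V617F/Ezh2Δ/Δ marrow carried the JAK2V617F mutation and Ezh2flox/flox, JAK2V617F marrow carried the mutation with intact Ezh2, Ezh2Δ/Δ marrow carried Ezh2flox/flox, and WT marrow carried Cre-ERT2 alone. The recipients of the transplant were CD45.1+ wild-type mice that had been lethally irradiated. Ezh2 was deleted 4 weeks after transplantation, and cells were sorted at 2 months. Progenitors of megakaryocytes and erythroid cells (MEP) and the stem cell fraction, which lacks lineage markers and carries c-Kit and Sca-1 (LSK), were each sorted from the 4 genotypes. Each of the 8 groups had 1 array, so a difference was averaged over the 4 matched pairs of arrays that differ in one factor, and p-values measure the spread between those pairs. How many donors or recipients stand behind an array, their age, and whether the sort removed host cells are not given in the labels.

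Imprinted genes are expressed mainly from a single parental copy. Most imprints trace to DNA methylation laid down in the germ line, and at some domains a neighbouring noncoding RNA holds a copy silent. Paternally expressed members tend to promote growth and maternally expressed ones to restrain it, and several are silenced in most tissues after birth while remaining active in stem cell compartments. Ezh2 is the enzyme of PRC2, a polycomb repressive complex that places repressive methyl marks on histone H3 and helps to silence some imprinted copies. JAK2V617F is the activated kinase of myeloproliferative neoplasms.

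The promoters of 4 members are shown because these genes gave the differences described below: Plagl1 and Dlk1 with genotype, and Grb10 and Igf2r with cell type. Each stretch runs from 250 bases before to 50 bases after a transcript start, in the RefSeq table of build GRCm38.p6, 5′ to 3′ on the strand of the gene, with CG dinucleotides, the sites of DNA methylation, in capitals. The Plagl1 stretch is chr10:13090582-13090881 on the plus strand, and that of Dlk1 is chr12:109452573-109452872 on the plus strand. The Grb10 stretch is chr11:12037371-12037670 on the minus strand, and that of Igf2r is chr17:12769657-12769956 on the minus strand.
Plagl1: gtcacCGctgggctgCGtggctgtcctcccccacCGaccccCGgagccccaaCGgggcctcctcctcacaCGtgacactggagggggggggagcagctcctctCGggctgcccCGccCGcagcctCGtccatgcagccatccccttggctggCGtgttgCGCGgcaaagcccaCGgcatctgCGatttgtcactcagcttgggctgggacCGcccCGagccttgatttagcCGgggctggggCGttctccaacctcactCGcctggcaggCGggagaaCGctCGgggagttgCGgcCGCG
Dlk1: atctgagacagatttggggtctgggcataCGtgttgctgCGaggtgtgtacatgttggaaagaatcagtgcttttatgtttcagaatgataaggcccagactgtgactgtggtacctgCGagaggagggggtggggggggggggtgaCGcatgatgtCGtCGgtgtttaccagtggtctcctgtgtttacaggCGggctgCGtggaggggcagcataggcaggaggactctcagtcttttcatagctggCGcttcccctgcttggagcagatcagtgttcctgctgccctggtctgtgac
Grb10: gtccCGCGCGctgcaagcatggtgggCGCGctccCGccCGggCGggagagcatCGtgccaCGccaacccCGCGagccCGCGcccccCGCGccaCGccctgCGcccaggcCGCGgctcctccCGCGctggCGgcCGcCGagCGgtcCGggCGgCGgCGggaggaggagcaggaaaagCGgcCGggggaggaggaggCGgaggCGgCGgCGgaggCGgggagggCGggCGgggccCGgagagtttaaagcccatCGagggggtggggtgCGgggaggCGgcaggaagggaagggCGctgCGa
Igf2r: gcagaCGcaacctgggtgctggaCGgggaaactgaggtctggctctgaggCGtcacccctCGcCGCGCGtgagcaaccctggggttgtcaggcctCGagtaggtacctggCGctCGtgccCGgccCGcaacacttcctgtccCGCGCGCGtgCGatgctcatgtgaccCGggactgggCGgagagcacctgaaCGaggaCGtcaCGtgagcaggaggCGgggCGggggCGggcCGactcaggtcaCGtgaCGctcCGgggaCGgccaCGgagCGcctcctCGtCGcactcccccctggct
Grb10 has a second promoter in the table (chr11:12027922-12028221, minus strand), with 9 CG dinucleotides and no TGCCGC; the one shown is the richer in CG. It had 45 CG dinucleotides in this stretch, Igf2r 34, Plagl1 26 and Dlk1 9. The median of all 32851 promoters of the table was 7, and 1.93% of them had at least as many as Grb10, 7.73% as many as Igf2r, 16.9% as many as Plagl1 and 45.8% as many as Dlk1. The table matched 7 of the 10 members with 11 promoters, which had 2 to 45 CG dinucleotides. The motif TGCCGC, the recognition sequence of the imprint-protecting zinc finger protein ZFP57, was searched on both strands and was found in the Plagl1 and Grb10 stretches shown and in 1 of the 4 Igf2 promoters, against 11.6% of all promoters. The motif holds a CG, and these stretches had 26, 45 and 14 CG dinucleotides, above the median of 7. The share of all promoters is therefore not a like comparison. The palindrome TTCNNNGAA, which STAT factors downstream of JAK2 recognise, was in none of the 11 and in 8.30% of all promoters.

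The sorts were checked against their defining markers. The summed linear level of 8 LSK markers was 19.01 to 35.4 in MEP and 248 to 377 in LSK. That of the 7 MEP markers with a probe was 392 to 847 in MEP and 40.9 to 79.8 in LSK. Within LSK the LSK markers summed to 248 and 263 with JAK2V617F, against 340 and 377 with JAK2 wild type. Within MEP the MEP markers summed to 392 and 532, against 804 and 847. There 8 megakaryocyte markers summed to 111 and 125, against 313 and 479, and Pf4 is in both lists. The part of these differences in the comparisons below was not tested. The arrays also differed in sex-linked genes. Xist, the RNA of the inactive X chromosome, was at 1.39 to 2.85 on the 4 Ezh2-deleted arrays and at -5.47 to -3.24 on the 4 Ezh2-intact arrays, and the Y-linked Ddx3y was at -6.05 to -4.79 and not well above background on the Ezh2-deleted arrays, against 1.17 to 1.33 on the Ezh2-intact arrays. Sex of the marrow and Ezh2 status cannot be told apart in the Ezh2 comparisons below. All arrays lay on 1 slide, with the cell types in separate rows and the genotypes in separate columns, so position cannot be told apart from the groups either. The Ezh2 probe was at 3.20 to 3.86 on Ezh2-deleted arrays and 3.33 to 4.04 on Ezh2-intact arrays (log2 difference -0.27, SE 0.17, adjusted p = 0.409 by limma), and since the exon it reads is not known here it checks nothing about the deletion.

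Of the 10 genes, Cdkn1c was well above background on all 8 arrays, Plagl1, Grb10 and Igf2r on 7, Dlk1 on 5, H19 on 4, Ndn on 2 and Peg3 on 1, while Igf2 and Peg10 were on none. Levels are on a log2 scale, with 0 at the 75th percentile of each array's signals, and a gene was read from its brightest probe. The 7 genes above background on at least 2 arrays were tested, among 13183 genes in all. Levels on arrays below background are given as measured and have no order among themselves. A level of one gene is not compared with that of another, since probes differ in brightness.

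**Figure D1:**
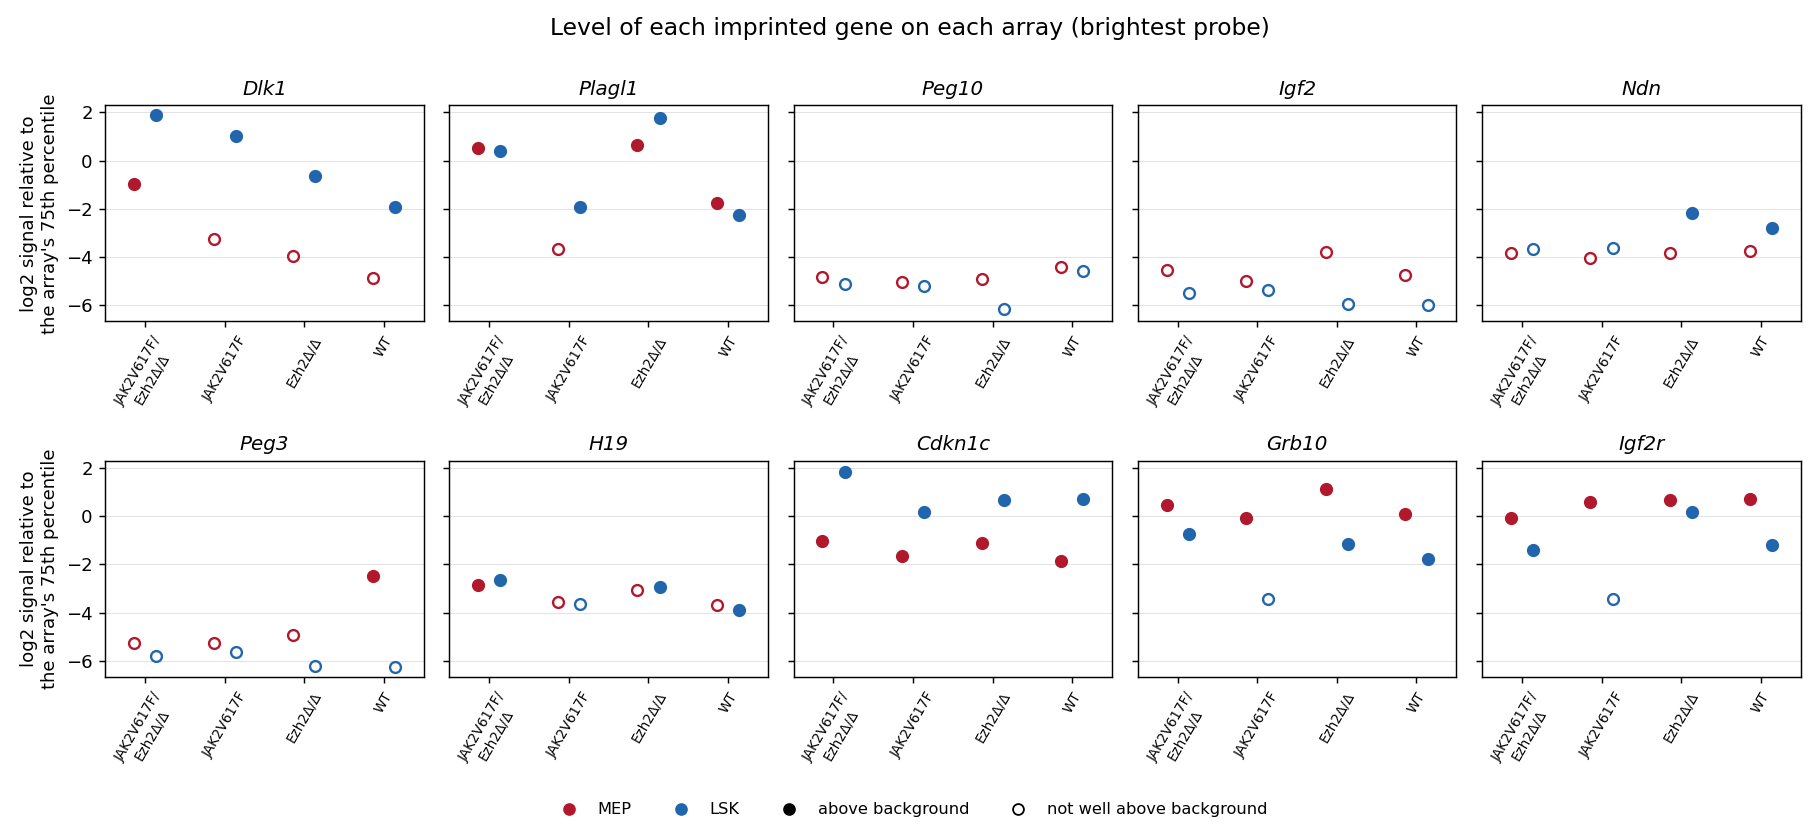
Level of each of the 10 genes on each array (vertical axis, log2 level with 0 at the 75th percentile of signals), by genotype, in MEP (red) and LSK (blue). Filled points are well above background and open points are not. Plagl1 is at 0.41 to 1.75 where Ezh2 was deleted and at -3.68 to -1.76 where it was intact, and Igf2 and Peg10 have no filled point.

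Plagl1 encodes a zinc finger transcription factor that restrains proliferation and regulates other imprinted genes, and it rose with Ezh2 deletion. The gene lies on chromosome 10 (13090832 to 13131694, GRCm38.p6). Its level in MEP was 0.53 in JAK2V617F/Ezh2Δ/Δ, -3.68 and not well above background in JAK2V617F, 0.67 in Ezh2Δ/Δ and -1.76 in WT. In LSK it was 0.41 in JAK2V617F/Ezh2Δ/Δ, -1.93 in JAK2V617F, 1.75 in Ezh2Δ/Δ and -2.24 in WT. All 4 Ezh2-deleted arrays were above all 4 Ezh2-intact arrays. The mean was 0.84 with Ezh2 deleted and -2.41 with Ezh2 intact, a log2 difference of 3.24 (SE 0.35, n = 4 against 4, adjusted p = 0.0141 by limma), in the same direction in 4 of 4 pairs. Since 3 of the 4 Ezh2-intact arrays measured it, the fold is a bound, and the level was at least 8.60-fold higher. The log2 difference was 3.32 in MEP (SE 0.55, adjusted p = 0.109) and 3.17 in LSK (SE 0.55, adjusted p = 0.136), neither past the threshold by itself, and they differed by 0.15 (SE 0.78, adjusted p = 1.00). With JAK2V617F the log2 difference was -0.77 (SE 0.35, adjusted p = 0.478), and the 4 pairs differed by -1.92 to 0.31.

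The 4 Plagl1 probes carry the same transcript accession in the scanner files, and they did not move together. The stretch of the transcript that each one reads is not given in the files. The probe A_52_P532456 was at 0.28 in JAK2V617F/Ezh2Δ/Δ, -2.91 in JAK2V617F, 0.51 in Ezh2Δ/Δ and -2.38 in WT MEP. The LSK levels of this probe were 0.07 in JAK2V617F/Ezh2Δ/Δ, -2.02 in JAK2V617F, 1.43 in Ezh2Δ/Δ and -2.42 in WT. It was well above background on all 8 arrays and its means with Ezh2 deleted and intact differed by 3.01, close to the 3.24 of the brightest probe A_55_P1961968. The other two were also above background on all 8 arrays but varied little: A_55_P1961965 stayed between -2.55 and -1.98 and A_55_P2153251 between -3.06 and -2.17, with differences of 0.26 each. Averaging the 4 probes gave a log2 difference of 1.69 (adjusted p = 0.0179), and normexp background correction of the brightest probe gave 2.25 (adjusted p = 0.00109). The call was lost when the JAK2V617F MEP array was left out (adjusted p = 0.0727) or the JAK2V617F/Ezh2Δ/Δ MEP array (adjusted p = 0.0992), with log2 differences of 2.94 and 3.07, and when all dim values were raised to 1 common floor, an alternative chosen after seeing the data (3.03, adjusted p = 0.120). The summed linear level of 8 B cell markers was 6.28 to 58.8 on Ezh2-deleted arrays and 2.76 to 19.7 on Ezh2-intact arrays, and 1 of 6 tested was called higher (Vpreb3). All 6 fitted differences were positive, with a median of 3.30, and 5 of 6 had an unadjusted p under 0.05. Within MEP the sum was 6.28 and 45.8 with Ezh2 deleted, against 2.76 and 2.88 with Ezh2 intact, and within LSK it was 18.7 and 58.8, against 15.0 and 19.7. Pax5 was above background on no array, and the other 7 were above background on at least 1. Of 4 tested T and NK markers, 1 was called higher with Ezh2 deletion (Gzma) and 3 fitted differences were positive, with a median of 0.49. The part of these markers in the Plagl1 difference was not tested. In sorted bulk samples, more cells of a kind and more RNA per cell cannot be told apart.

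**Figure D2:**
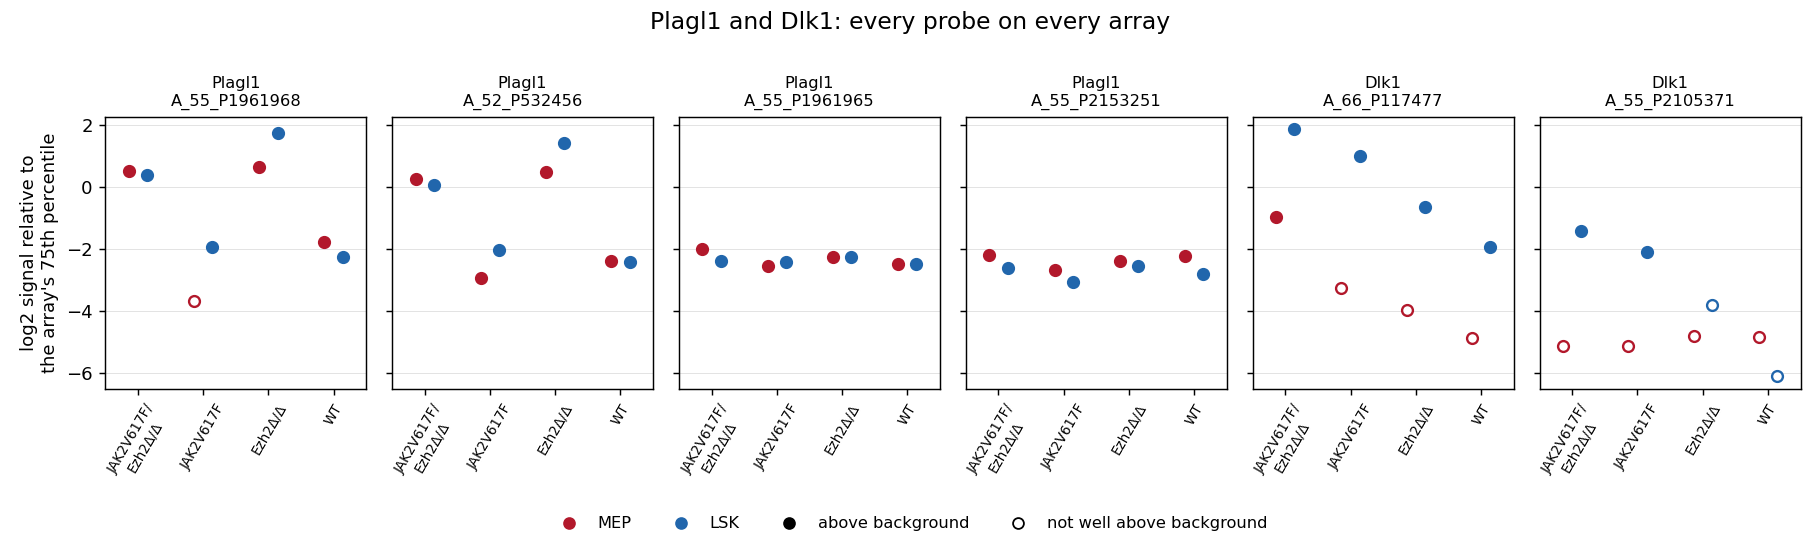
Every probe of Plagl1 (4 panels) and Dlk1 (2 panels) on every array (log2 level, 0 at the 75th percentile of signals), by genotype, in MEP (red) and LSK (blue). Filled points are well above background. A pair of Plagl1 probes is high on the Ezh2-deleted arrays and the other pair stays between -3.06 and -1.98 throughout.

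Dlk1 encodes a transmembrane protein with EGF-like repeats, related to Notch ligands, that holds precursor cells in an undifferentiated state. It rose with JAK2V617F and was lower in MEP than in LSK. The gene lies on chromosome 12 (109452485 to 109463336, GRCm38.p6). Its level in MEP was -0.96 in JAK2V617F/Ezh2Δ/Δ, and it was not well above background at -3.25 in JAK2V617F, -3.97 in Ezh2Δ/Δ and -4.87 in WT. In LSK it was 1.88 in JAK2V617F/Ezh2Δ/Δ, 1.02 in JAK2V617F, -0.63 in Ezh2Δ/Δ and -1.92 in WT, all above background. In LSK both JAK2V617F arrays were above both JAK2 wild-type arrays, and at each JAK2 genotype the Ezh2-deleted array was above the Ezh2-intact one. In MEP JAK2V617F/Ezh2Δ/Δ was above the other three, which were all below background and have no order.

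The mean Dlk1 level was -0.33 with JAK2V617F and -2.85 with JAK2 wild type, a log2 difference of 2.52 (SE 0.26, n = 4 against 4, adjusted p = 0.0182 by limma, 4 of 4 pairs), at least 3.36-fold higher. The log2 difference was 2.31 in MEP (SE 0.37, adjusted p = 0.110) and 2.72 in LSK (SE 0.37, adjusted p = 0.0842). In MEP 1 of the 2 pairs, JAK2V617F against WT, was below background on both sides. Both LSK pairs were measured on both sides: JAK2V617F/Ezh2Δ/Δ was 5.68-fold above Ezh2Δ/Δ, and JAK2V617F was 7.67-fold above WT. With Ezh2 deletion the mean was -0.92, against -2.26 with Ezh2 intact, a log2 difference of 1.34 (SE 0.26, adjusted p = 0.0794) that missed the threshold; all 4 pairs were positive as measured, but in MEP the pair of Ezh2Δ/Δ and WT was below background on both sides. Against LSK, MEP were lower by at least 5.84-fold (mean -3.26 in MEP and 0.09 in LSK, log2 difference -3.35, SE 0.26, adjusted p = 7.13e-05, 4 of 4 pairs), with 1 of 4 MEP arrays above background. With normexp background correction the log2 difference was -1.72.

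The second Dlk1 probe was well above background on no MEP array. In LSK it was at -1.42 in JAK2V617F/Ezh2Δ/Δ and -2.08 in JAK2V617F, both above background, and not well above background at -3.79 in Ezh2Δ/Δ and -6.10 in WT. The JAK2V617F call on Dlk1 rested on single arrays: the adjusted p was 0.0508 without WT LSK, 0.0582 without Ezh2Δ/Δ LSK, 0.0658 without Ezh2Δ/Δ MEP and 0.126 without JAK2V617F/Ezh2Δ/Δ MEP, with log2 differences of 2.33 to 2.48. It was also lost with dim values raised to the floor of the array (1.78, adjusted p = 0.149), with both probes averaged (1.98, adjusted p = 0.144), with normexp background correction (1.39, adjusted p = 0.0533) and with 1 common floor (1.83, adjusted p = 0.418). The summed linear level of 8 granulocyte markers was 148 to 1631 on JAK2V617F arrays and 20.8 to 513 on JAK2 wild-type arrays, and 4 of 8 were called higher (Camp, Ngp, S100a8 and S100a9). All 8 fitted differences were positive, with a median of 2.57, and all 8 had an unadjusted p under 0.05. Within MEP the sum was 148 and 265 with JAK2V617F, against 20.8 and 41.9 with JAK2 wild type, and within LSK it was 594 and 1631, against 345 and 513. Of 6 tested mast cell markers, 1 was called higher with JAK2V617F (Fcer1a) and 5 fitted differences were positive, with a median of 0.43. The part of these markers in the Dlk1 difference was not tested. The summed linear level of 9 stromal markers was 12.2 to 15.7 on JAK2V617F arrays and 9.05 to 15.95 on JAK2 wild-type arrays; Col1a2, Lepr and Pdgfrb were above background on all 8 arrays, and Col1a1, Dcn and Pdgfra on none. That of 8 endothelial markers was 34.5 to 37.8 on JAK2V617F arrays and 23.7 to 62.5 on JAK2 wild-type arrays. Of these 8, 7 were tested and Cdh5 was above background on no array. Within LSK the stromal sum was 12.4 and 14.8 with JAK2V617F, against 9.05 and 10.07 with JAK2 wild type. The endothelial sum there was 34.7 and 37.8, against 23.7 and 27.2. Within MEP the stromal sum was 12.2 and 15.7, against 15.8 and 15.95, and the endothelial sum 34.5 and 35.9, against 55.9 and 62.5. The part of these sums in the Dlk1 difference was not tested either.

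H19 (chromosome 7, 142575530 to 142578146) and Igf2 (chromosome 7, 142650768 to 142666816) are neighbours that share enhancers; H19 is a maternally expressed noncoding RNA and Igf2 the insulin-like growth factor expressed from the paternal copy. Igf2 was read by 1 probe and lay between -5.97 and -3.78, not well above background on any array. H19 was read by 5 probes, 4 of which were not above background anywhere. The remaining one was at -2.83 in JAK2V617F/Ezh2Δ/Δ MEP and, below background, at -3.54 in JAK2V617F, -3.06 in Ezh2Δ/Δ and -3.68 in WT MEP. In LSK it was at -2.65 in JAK2V617F/Ezh2Δ/Δ, -3.63 and below background in JAK2V617F, -2.95 in Ezh2Δ/Δ and -3.88 in WT. As measured, the mean was -2.88 with Ezh2 deleted and -3.68 with Ezh2 intact. The log2 difference of 0.81 (SE 0.14, adjusted p = 0.0631 by limma) missed the threshold. Above background were 3 of 4 Ezh2-deleted and 1 of 4 Ezh2-intact arrays, so the arrays are not ranked. With dim values raised to 1 common floor the difference was 0.05, so it rests on values near the background. H19 probes were matched by the symbol printed in the scanner files, and the strand they read is not given there.

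Igf2r (chromosome 17, 12682406 to 12769706) encodes the receptor that carries IGF2 to the lysosome for degradation, and it was higher in MEP than in LSK. Its level in MEP was -0.09 in JAK2V617F/Ezh2Δ/Δ, 0.57 in JAK2V617F, 0.67 in Ezh2Δ/Δ and 0.72 in WT. The LSK levels were -1.38 in JAK2V617F/Ezh2Δ/Δ, -3.44 in JAK2V617F, 0.19 in Ezh2Δ/Δ and -1.20 in WT. The means were 0.47 in MEP and -1.46 in LSK, a log2 difference of 1.92 (SE 0.49, n = 4 against 4, adjusted p = 0.0178 by limma, 4 of 4 pairs), at least 3.80-fold higher, although the Ezh2Δ/Δ LSK array was above the JAK2V617F/Ezh2Δ/Δ MEP array. The probe was printed in 10 spots, whose SD within an array was 0.06 to 0.12 on 7 arrays. On the JAK2V617F LSK array 3 of the 10 spots were well above background and the SD was 0.39, so that array was counted as below background. With normexp background correction the log2 difference between MEP and LSK was 1.29. With Ezh2 deletion the log2 difference was -0.36 in MEP (SE 0.28, adjusted p = 0.528) and 1.72 in LSK (SE 0.28, adjusted p = 0.128). With JAK2V617F it was -0.46 in MEP (SE 0.28, adjusted p = 0.794) and -1.90 in LSK (SE 0.28, adjusted p = 0.0904), and over both cell types -1.18 (SE 0.49, adjusted p = 0.446, lower in 4 of 4 pairs).

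**Figure D3:**
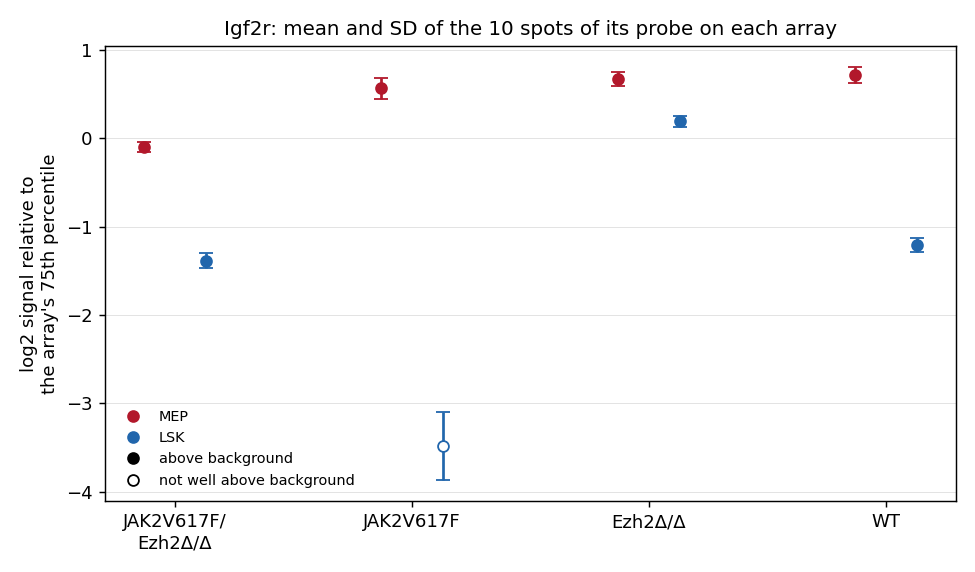
Mean and SD (bars) of the 10 spots of the Igf2r probe on each array (log2 level, 0 at the 75th percentile of signals), by genotype, in MEP (red) and LSK (blue). The open point is the array on which 3 of 10 spots were well above background. MEP lie between -0.09 and 0.72, and LSK between -3.48 and 0.19.

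Cdkn1c and Grb10 are maternally expressed brakes on growth that divided the cell types in opposite directions. Cdkn1c (chromosome 7, 143458339 to 143461059) encodes p57, a CDK inhibitor that helps to keep mouse haematopoietic stem cells quiescent. Its level in MEP was -1.02 in JAK2V617F/Ezh2Δ/Δ, -1.64 in JAK2V617F, -1.11 in Ezh2Δ/Δ and -1.85 in WT. In LSK it was 1.82 in JAK2V617F/Ezh2Δ/Δ, 0.19 in JAK2V617F, 0.68 in Ezh2Δ/Δ and 0.72 in WT. Every MEP array was below every LSK array, with means of -1.41 in MEP and 0.85 in LSK, and Cdkn1c was 4.78-fold lower in MEP (log2 difference -2.26, SE 0.25, adjusted p = 4.2e-04 by limma). The JAK2V617F/Ezh2Δ/Δ LSK array stood 1.1 above WT LSK and 1.63 above JAK2V617F LSK, while the log2 difference with Ezh2 deletion over all pairs was 0.74 (SE 0.25, adjusted p = 0.234, higher in 3 of 4 pairs).

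Grb10 (chromosome 11, 11930499 to 12037428) encodes an adaptor that dampens insulin and IGF receptor signalling. Its level in MEP was 0.47 in JAK2V617F/Ezh2Δ/Δ, -0.08 in JAK2V617F, 1.13 in Ezh2Δ/Δ and 0.08 in WT. Among LSK it was -0.73 in JAK2V617F/Ezh2Δ/Δ, -3.42 and not well above background in JAK2V617F, -1.16 in Ezh2Δ/Δ and -1.76 in WT. Every MEP array was above every LSK array, with means of 0.40 in MEP and -1.77 in LSK, and Grb10 was at least 4.49-fold higher in MEP (log2 difference 2.17, SE 0.34, adjusted p = 0.00224 by limma, 3 of 4 LSK arrays above background). With normexp background correction the log2 difference was 1.44. With Ezh2 deletion the log2 difference was 1.22 (SE 0.34, adjusted p = 0.181), positive in 4 of 4 pairs, and 1 of these pairs, JAK2V617F/Ezh2Δ/Δ over JAK2V617F in LSK, differed by 2.69 against 0.54 to 1.05 in the other three.

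Ndn, Peg3 and Peg10 were at or near the background. Ndn (chromosome 7, 62348277 to 62349928) encodes necdin, a MAGE family protein that restrains growth in neurons, and it was well above background on 2 arrays. It was not well above background on any MEP array, at -4.06 to -3.73. In LSK it was not well above background at -3.68 in JAK2V617F/Ezh2Δ/Δ and -3.62 in JAK2V617F, and it was above background at -2.16 in Ezh2Δ/Δ and -2.80 in WT. The fit called Ndn lower in MEP (log2 difference -0.80, SE 0.25, adjusted p = 0.0388), but no fold can be given, since the lowest measurable signal on MEP arrays (-3.16 to -2.84) was higher than on LSK arrays (-4.17 to -3.53), and with dim values raised to the floor of the array the difference was 0.03. Peg3 (chromosome 7, 6703892 to 6730462), a paternally expressed zinc finger gene, was well above background in WT MEP alone, at -2.47, and its second probe was on no array. Peg10 (chromosome 6, 4747306 to 4760517), derived from a retrotransposon and needed in the mouse placenta, was read by 2 probes that stayed between -6.27 and -4.40.

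Igf2, Peg10 and Peg3 were not tested. The members were chosen with earlier results of these data known, so shares set beside those of all genes only describe the 7 tested. Over the 7 tested genes, the Ezh2 deletion call was made for 1 gene, Plagl1, against 0.713% of all genes tested (0.668% higher). All 7 fitted differences were positive, with a median of 0.81, against a median of -0.10 over all genes. Of the 7, 5 had an unadjusted p under 0.05 by limma, against 18.1% of all genes. The median is the value of H19, also among the 5, which rests on levels near the background and was 0.05 with 1 common floor. Ndn, counted as positive at 0.17, had 2 of 4 pairs in that direction. The JAK2V617F call was made for 1 gene, Dlk1, against 0.311% of all genes (0.205% higher), and 3 of 7 differences were positive, with a median of -0.52 against 0.01 over all genes; 3 of 7 had an unadjusted p under 0.05, against 11% of all genes. For MEP against LSK 5 of 7 were called, against 41% of all genes (51.3% at an unadjusted p under 0.05): Grb10 and Igf2r were higher in MEP (20.6% of all genes), and Dlk1, Cdkn1c and Ndn were lower (20.4%). Ndn passed the filter through 2 LSK arrays alone, both JAK2 wild type, and its call rests on MEP values below background. For JAK2V617F, Ndn is also counted at an unadjusted p under 0.05 over both cell types, in LSK and in their difference. In those counts its levels with JAK2V617F were all below background, so it adds no support. Within single cell types limma called none of the 7 for Ezh2 deletion in MEP (0.584% of all genes), for Ezh2 deletion in LSK (0.129%), for JAK2V617F in MEP (0.152%) or for JAK2V617F in LSK (0.174%). At an unadjusted p under 0.05 there were 3 of 7 for Ezh2 deletion in MEP (12.9% of all genes) and 5 for Ezh2 deletion in LSK (9.48%). For JAK2V617F there was 1 in MEP (7.96%) and there were 3 in LSK (17.9%). The MEP counts were Plagl1, Dlk1 and H19 for Ezh2 deletion and Dlk1 for JAK2V617F. Among MEP arrays Dlk1 and H19 were above background in JAK2V617F/Ezh2Δ/Δ alone, so their part in these counts rests on values below background. The difference of the Ezh2 effect between MEP and LSK was called for none of the 7 and for 0.00759% of all genes, with 1 of 7 at an unadjusted p under 0.05 (5.36%), and that of the JAK2V617F effect for none of the 7 and 0%, with 2 of 7 at an unadjusted p under 0.05 (11.5%). The interaction of Ezh2 deletion with JAK2V617F was called for none of the 7 and for 0% of all genes, and its estimates ran from -0.17 for Ndn to 0.79 for Grb10, none with an unadjusted p under 0.05 (3.47% of all genes).

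**Figure D4:**
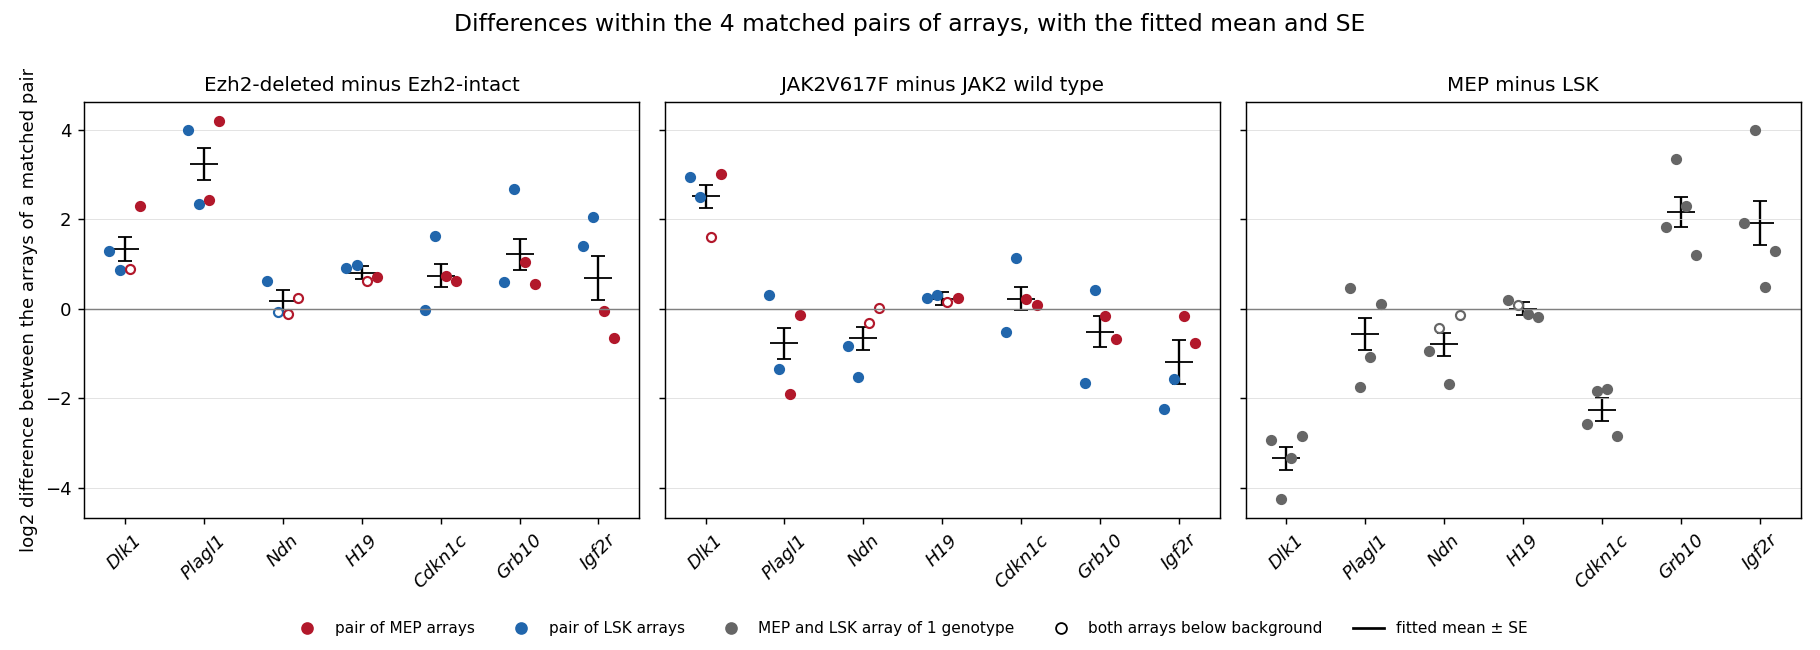
Log2 differences within the 4 matched pairs of arrays for each of the 7 tested genes (points), with the fitted mean and its SE (black), for Ezh2-deleted minus Ezh2-intact, JAK2V617F minus JAK2 wild type, and MEP minus LSK. Red points are pairs of MEP arrays, blue points pairs of LSK arrays, grey points MEP and LSK arrays of 1 genotype, and open points pairs with both arrays below background. The 4 Plagl1 pairs for Ezh2 lie between 2.34 and 4.21, and the 4 Dlk1 pairs for JAK2V617F between 1.62 and 3.01.

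JAK2V617F/Ezh2Δ/Δ arrays were set against WT arrays with no test, since each is a single array. In MEP 2 of the 7 genes were at least 2-fold higher, Dlk1 and Plagl1, against 8.7% of all genes. Plagl1 was 4.89-fold higher there, while Dlk1 was at -0.96 in JAK2V617F/Ezh2Δ/Δ and not well above background in WT. In LSK 5 of the 7 were at least 2-fold higher, against 6.08% of all genes: Dlk1 by 13.95-fold, Plagl1 by 6.29-fold, H19 by 2.34-fold, Cdkn1c by 2.14-fold and Grb10 by 2.03-fold. None was 2-fold lower in MEP (5.45% of all genes) or in LSK (2.82%). These pairs share their arrays with the comparisons above, and the members were chosen with earlier results of these data known, so the shares are a description.

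The genes that surround the members in their imprinted domains were read in the same way. Of the neighbours in the 9 domains none was called for Ezh2 deletion or for JAK2V617F. Sgce, which shares its promoter region with Peg10, was at -0.11 in JAK2V617F/Ezh2Δ/Δ, -1.37 in JAK2V617F, 0.31 in Ezh2Δ/Δ and -0.92 in WT MEP, and at 0.56 in JAK2V617F/Ezh2Δ/Δ, -1.14 in JAK2V617F, 0.63 in Ezh2Δ/Δ and 0.33 in WT LSK. It was higher in 4 of 4 pairs with Ezh2 deleted, by 1.12 (SE 0.24, adjusted p = 0.0976), while both Peg10 probes were below background. Meg3, the maternally expressed noncoding RNA beside Dlk1, was well above background by its brightest probe on 2 arrays, at -0.44 in Ezh2Δ/Δ MEP and -2.94 in Ezh2Δ/Δ LSK. Those were not the arrays with the highest Dlk1. The other Meg3 probes were above background on no array. Phactr2, beside Plagl1, differed by 0.50 with Ezh2 deletion (adjusted p = 0.234), against 3.24 for Plagl1. Ascl2, a transcription factor of the Kcnq1 domain of Cdkn1c, differed by 1.15 (adjusted p = 0.242 by limma), with a wider gap in the MEP pairs. In MEP it was at 0.45 in Ezh2Δ/Δ and -1.89 in WT, and at 0.01 in JAK2V617F/Ezh2Δ/Δ and -2.03 in JAK2V617F. In LSK it was at -0.77 in Ezh2Δ/Δ and -0.80 in WT, and at -0.56 in JAK2V617F/Ezh2Δ/Δ and -0.75 in JAK2V617F. Airn, the antisense RNA that silences the paternal Igf2r copy, differed by 0.75 (adjusted p = 0.251) and was highest in JAK2V617F/Ezh2Δ/Δ MEP at 1.77.

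**Figure D5:**
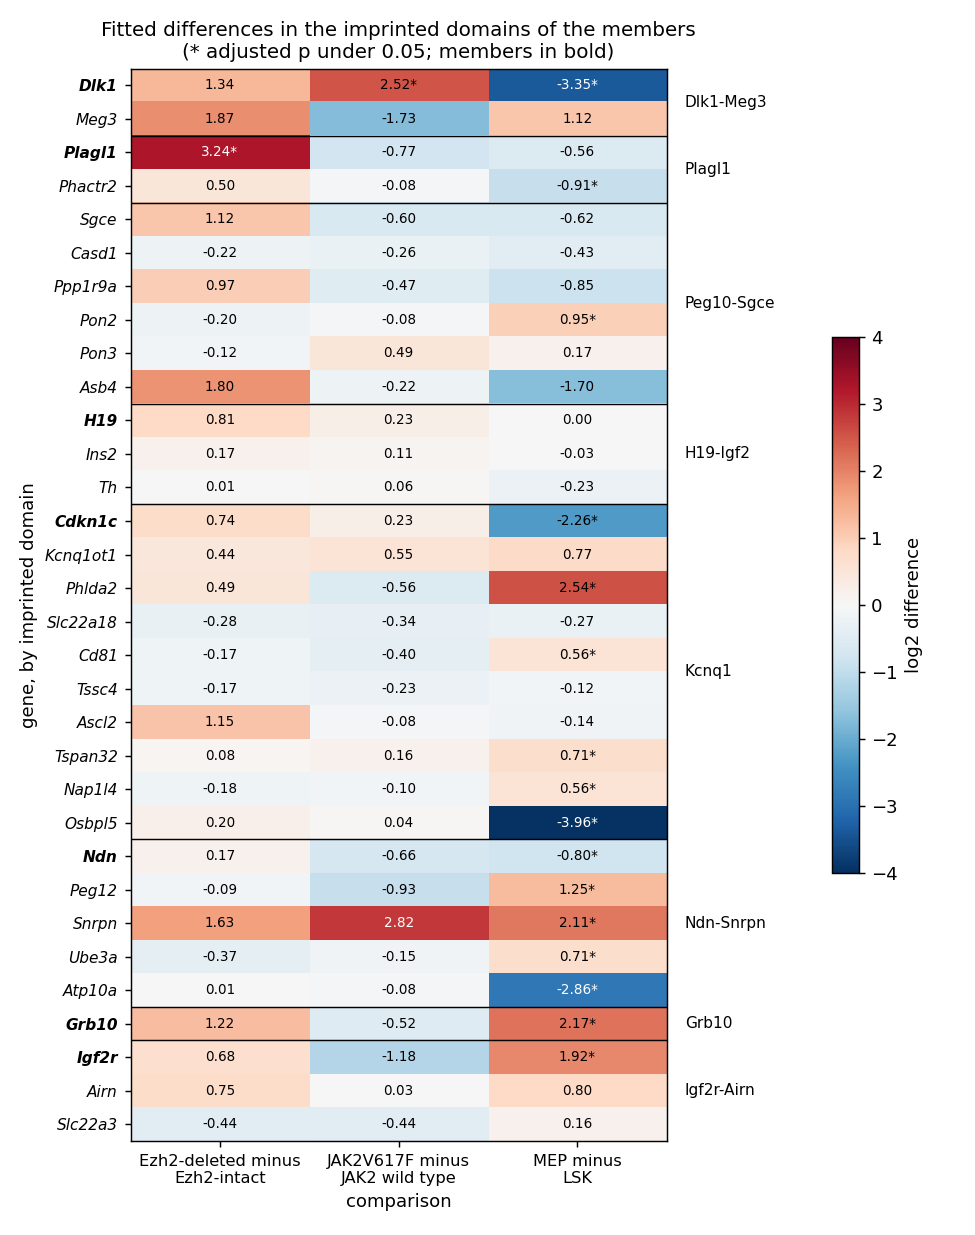
Fitted log2 differences (colour and printed value) of the tested genes in the imprinted domains of the members, for Ezh2-deleted minus Ezh2-intact, JAK2V617F minus JAK2 wild type, and MEP minus LSK; members are in bold and stars mark an adjusted p under 0.05. Values include arrays below background as measured. In the first column the star is on Plagl1 (3.24), and in the second on Dlk1 (2.52).

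Between cell types 41% of all genes were called. In the Kcnq1 domain Cdkn1c was lower in MEP, as was Osbpl5, a lipid transfer gene (log2 difference -3.96, SE 0.20), while Phlda2, a placental growth brake, was higher in MEP by at least 5.04-fold (log2 difference 2.54). Of 10 tested genes of that domain 4 were called higher and 2 lower in MEP. Of 5 in the domain of Ndn, Peg12 and Ube3a, above background on all 8 arrays, were called higher, and Atp10a, above background on the 4 LSK arrays alone, was at least 4.53-fold lower. The fit also called Ndn lower and Snrpn higher, but Ndn was below background on all 4 MEP arrays, and Snrpn was below background on both sides in Ezh2Δ/Δ and in WT. Snrpn, which encodes a splicing protein, was above background on 3 arrays, at 0.32 in JAK2V617F/Ezh2Δ/Δ MEP, -2.77 in JAK2V617F MEP and -3.10 in JAK2V617F/Ezh2Δ/Δ LSK, all of them with JAK2V617F, but not in JAK2V617F LSK, where it was at -5.83. Its log2 difference with JAK2V617F was 2.82 (adjusted p = 0.174), and a second probe was above background on 3 arrays with levels of -0.72, -2.56 and -2.09 on the same arrays. The remaining Snrpn probe was above background on no array, at -5.02, -4.97 and -5.48 on those same arrays.

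Other genes that act with the members were read from lists of their pathways. Among 22 imprinted genes of other domains 12 were tested, and none was called for Ezh2 deletion (7 positive, median 0.08) or for JAK2V617F (6 positive), while Gatm was called higher and H13, Peg13 and Sfmbt2 lower in MEP, 4 of 12 against 41% of all genes. Sfmbt2 was above background on 1 of 4 MEP arrays and lower by at least 1.17-fold. Of 14 genes of IGF and insulin signalling 6 were tested and none was called for either genotype factor; Igf1 and Igf2 were above background on no array, and the receptor Igf1r was at 1.86 to 2.59 in MEP and 2.02 to 2.84 in LSK. Igfbp4 and Igfbp6, which bind IGFs outside the cell, were lower in MEP; the log2 difference of Igfbp4 was -2.01, and Igfbp6, above background on no MEP array, was at least 1.64-fold lower. Of the 3 Cip/Kip CDK inhibitors Cdkn1a was lower in MEP together with Cdkn1c (-1.41, adjusted p = 0.00298), and Cdkn1b was not called (-0.26, adjusted p = 0.357). Of 9 regulators of imprints and DNA methylation 8 were tested, and Dnmt3a and Dnmt3b were called lower in MEP; Dnmt3l was called too, but it was above background on 2 LSK arrays alone, and no fold can be given. None was called for either genotype factor. Of 10 PRC2 subunits none was called for either genotype factor.

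Across the 8 arrays the members followed different patterns, given here as correlations that the cell type and genotype of the arrays shape. Grb10 and Igf2r correlated at 0.87, Dlk1 and Cdkn1c at 0.82, and Plagl1 and H19 at 0.82, whereas Dlk1 and Igf2r correlated at -0.76. The tested genes most like Dlk1 were 5031425E22Rik (r = 0.99) and Il18r1 (r = 0.98), and those most like Plagl1 were Ncam1 (r = 0.96) and Hectd2 (r = 0.94). For H19 they were Asgr1 and Mlf1, for Cdkn1c 4933421O10Rik and Ltb, for Ndn Bach1 and Trim14, for Grb10 the X-linked Tceal6 and Tceal3, and for Igf2r Rdh10 and Dusp16, with r from 0.95 to 0.99. They were picked as the highest of 13183 genes over 8 arrays and are given as a description. All these correlations use levels below background as measured, so they rest in part on values that have no order. Of the genes picked, Trim14 was above background on 2 arrays, Ncam1 on 3 and 4933421O10Rik on 4. Il18r1 and Hectd2 were on 6, Rdh10 on 7 and the others on all 8.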

How the data were processed

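RNA from LSK and MEP of 4 genotypes, 20 ng per sample, was labelled with Cy3 and hybridised to 1 one-colour Agilent array per group, per the labels' protocols. The scanner files hold the deposited processed intensity of each spot, made with Agilent Feature Extraction 10.7.1.1, per the file headers. The deposited series table holds a linear ratio, the processed signal over a per-array factor near the 75th percentile, and was used as an alternative.

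For this report each array had 62976 spots and 55681 probes. Spots of a probe were averaged without control and non-uniform spots, log2 was taken, and the log2 75th percentile of the array (signal 220 to 369) was subtracted from these deposited intensities. A probe was well above background if 50% or more of its spots carried the Feature Extraction mark for it, as 39.8 to 48.8% of probes did. Probes were named by RefSeq accession (27509) or symbol (12) through a table of assembly GRCm38.p6. A gene was read from its brightest probe and tested if above background on at least 2 arrays. limma 3.58.1 (R 4.3.3) fitted cell type, JAK2V617F and Ezh2 deletion together over 13183 genes, with fits within cell types and with an interaction besides, and p-values were adjusted by Benjamini-Hochberg over all of them, with calls at an adjusted p under 0.05. SEs within cell types pool the spread over both. Where an array of the dimmer group was below background, values under the lowest measurable signal of that array were raised to it, and the fold is a bound ("at least"). For Grb10 and Igf2r the JAK2V617F LSK level lay above that signal, so the bound equals the fitted fold. With 1 array per group the number of arrays limits the precision, and the labels do not say how many animals each holds. The fits were tested on simulated data.

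By rule, all 10 members were described with every probe; genes named besides them came from the lists of their imprinted domains, up to 4 from each other list with called genes first, the sex-linked genes, and for each tested member the 2 genes with the highest Pearson correlation over the 8 arrays. The members and lists were chosen with earlier results of these data known. Alternatives covered background correction, normalization, the deposited table, the filter, the floor, the probe rule, the variance prior, the threshold and each array left out. The exon of the Ezh2 probe and probe sequences were not used here.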

Additional observations from a re-analysis of the deposited data

Results flagged for a closer look

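The effect of Ezh2 deletion on Igf2r differed between the cell types by -2.08 on the log2 scale (MEP minus LSK, SE 0.39, unadjusted p = 0.00224, adjusted p = 0.312 by limma). It was picked because the signs of the pairs were opposite between MEP and LSK. In MEP the pairs differed by -0.66 for JAK2V617F/Ezh2Δ/Δ against JAK2V617F and by -0.05 for Ezh2Δ/Δ against WT. On those pairs 35.4% and 87.1% of all genes tested were at least as far apart, so these signs are not read as a fall. In LSK both were higher, by 2.05 for JAK2V617F/Ezh2Δ/Δ against JAK2V617F, where the JAK2V617F array had 3 of 10 spots above background, and by 1.40 for Ezh2Δ/Δ against WT. The tested difference did not pass adjustment over 13183 genes, where 0.00759% were called.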

How the results depend on the processing

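Changing the processing left 1 member called for Ezh2 deletion (Plagl1) and 1 for JAK2V617F (Dlk1) under quantile normalization, the deposited ratio table, no filter on dim probes and non-uniform spots kept. For Ezh2 deletion the number of members called was 0 with the filter for all 8 arrays, which left Cdkn1c alone to test, and 0 with 1 common floor, which was chosen after seeing the data; it was 2 with a trended variance prior, which added Dlk1 (adjusted p = 0.0390), and 3 at an adjusted p under 0.10, which added Dlk1 and H19. For JAK2V617F it was 0 with normexp, with the filter for all 8 arrays, with dim values at the floor of the array, with the mean of all probes and with the common floor. For MEP against LSK it was 1 with the filter for all 8 arrays, while the calls on Dlk1, Cdkn1c, Grb10 and Igf2r were kept under every alternative in which they were tested, with the smallest log2 differences under normexp (-1.72, -1.69, 1.44 and 1.29). Within cell types, where no member was called, Ezh2 deletion in MEP gave 1 with the array floor and 1 with the trended prior, Ezh2 deletion in LSK gave 1 with normexp and 2 with the array floor, JAK2V617F in MEP gave 1 with the trended prior, and JAK2V617F in LSK gave 2 with normexp, with the array floor, with the trended prior and at an adjusted p under 0.10. Igf2r in LSK was among these, with an adjusted p for JAK2V617F of 0.0457 with normexp, 0.0300 with the array floor and 0.0255 with the trended prior, and for Ezh2 deletion of 0.0411 with the array floor. Members at least 2-fold higher in JAK2V617F/Ezh2Δ/Δ than in WT LSK numbered 3 with normexp and 1 with the filter for all 8 arrays, and 1 was lower under quantile normalization (Ndn); in MEP 0 were higher with that filter and 1 was lower without a filter (Peg3). Leaving out each array in turn gave 0 to 1 members called for Ezh2 deletion, 0 to 1 for JAK2V617F, 4 to 5 for MEP against LSK, 0 to 2 for Ezh2 deletion in MEP, 0 to 2 for Ezh2 deletion in LSK, 0 to 1 for JAK2V617F in MEP, 0 to 2 for JAK2V617F in LSK, and 0 for the interaction and for both differences between cell types; a lone remaining array is assumed to vary like the others. Over all genes the same omissions gave 12 to 102 calls for Ezh2 deletion, against 94 with all arrays, 0 to 44 for JAK2V617F, against 41, and 3657 to 5866 for MEP against LSK, against 5409. The sign turned for Ndn with Ezh2 deletion (-0.063 under quantile normalization, and -0.071 to 0.37 with each array left out, the lowest without Ezh2Δ/Δ LSK), for Ndn in MEP against LSK (0.034 with the array floor) and for Cdkn1c with JAK2V617F (-0.014 to 0.43 with each array left out, the lowest without JAK2V617F/Ezh2Δ/Δ LSK), none of them called under those settings. The causes were not tested. Signals near the background limit H19, Ndn, Peg3 and Dlk1 in MEP. No pairing by replicate was possible because every group has 1 array, all numbered replicate 1. The shared number pairs nothing; the matched pairs of the text are arrays alike in the other factors, which the fit holds as terms.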
